A study of Rattus norvegicus with 18 samples.

Results

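Hepatocyte transporters of bile acids and drugs were described in whole liver of rats with experimental steatohepatitis. The set was chosen by gene symbol and named 9 genes, the uptake carriers Slc10a1, Slco1a1, Slco1a4 and Slco1b2, the canalicular exporters Abcb11, Abcb4 and Abcc2, and the basolateral exporters Abcc3 and Abcc4. Of these 9 genes, 8 were matched among the 32623 genes counted, and all 8 were among the 12904 genes kept by the filter on low counts. Abcb4, the phospholipid floppase of the canalicular membrane, was not analysed here. RNA of 18 male Wistar rats was sequenced, 1 library per rat, with 6 rats in each of 3 groups. Control rats had chow and normal water for 12 weeks. NASH rats inhaled carbon tetrachloride (CCl4) and drank phenobarbital for 6 weeks, followed by a high-fat, high-cholesterol diet for 4 weeks. NASH-CH rats, the model with cirrhosis, had 8 weeks of CCl4 and phenobarbital and then 16 weeks of the diet with both agents continued, 24 weeks in all. The text deposited with the samples differs from this scheme, in that it gives combined treatment for 10 and 24 weeks. The diet, the toxicant, phenobarbital and the length of the protocol therefore cannot be told apart, and no control group had the same length as either model.

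Hepatocytes take up bile acids and drugs from portal blood across the basolateral membrane, mainly through the sodium-dependent carrier encoded by Slc10a1 and the organic anion transporting polypeptides encoded by the Slco1 genes. They export them into the bile canaliculus through ATP-driven pumps such as those encoded by Abcb11 and Abcc2. A basolateral route back to blood, through the products of Abcc3 and Abcc4, is best known from cholestatic liver, where its use is raised. Transcription of these carriers is controlled by nuclear receptors, among them the bile acid receptor (Nr1h4) and the phenobarbital-responsive receptor CAR (Nr1i3), and by hepatocyte factors such as HNF1.

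Slco1a1, Slco1a4 and Slco1b2 lie near each other on rat chromosome 4. Their promoters are shown because differences of Slco1a1 and Slco1b2 passed the test below and none of Slco1a4, a close relative of Slco1a1, did. The sequences are the 250 bases before the start of each gene in RefSeq (GRCr8, a later assembly than the Rnor_6.0 to which the reads were aligned), printed 5′ to 3′ on the strand of the gene. In Slco1a1 and Slco1a4, capitals mark runs of at least 8 aligned bases that are identical in both. In Slco1b2, capitals mark GTTAAT, the core of an HNF1 recognition site.
Slco1a1, chr4:176681993-176682242, minus strand: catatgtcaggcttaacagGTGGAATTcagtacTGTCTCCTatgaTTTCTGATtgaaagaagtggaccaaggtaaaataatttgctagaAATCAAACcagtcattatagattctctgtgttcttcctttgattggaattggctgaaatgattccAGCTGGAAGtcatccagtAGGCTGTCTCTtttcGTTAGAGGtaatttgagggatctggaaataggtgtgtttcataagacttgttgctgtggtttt
Slco1a4, chr4:176495847-176496096, minus strand: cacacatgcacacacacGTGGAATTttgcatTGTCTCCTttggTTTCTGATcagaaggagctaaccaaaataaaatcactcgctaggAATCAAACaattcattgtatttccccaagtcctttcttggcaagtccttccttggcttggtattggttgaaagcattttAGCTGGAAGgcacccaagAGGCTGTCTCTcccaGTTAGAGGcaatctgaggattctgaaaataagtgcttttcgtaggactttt
Slco1b2, chr4:176282334-176282583, plus strand: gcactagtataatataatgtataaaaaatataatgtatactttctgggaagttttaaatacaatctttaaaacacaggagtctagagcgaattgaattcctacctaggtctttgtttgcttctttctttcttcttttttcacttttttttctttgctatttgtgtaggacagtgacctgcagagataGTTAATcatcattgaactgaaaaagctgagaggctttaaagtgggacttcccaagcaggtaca
The aligned Slco1a1 and Slco1a4 promoters were identical at 176 of 265 columns (66.4%), whereas the other pairs of transporter promoters had identities of 35.6% to 55.6%. A window was given for 7 of the 9 symbols, and Abcb11 and Abcc3 had none. GTTAAT, searched on both strands, was held by 6.45% of all 33469 windows, and among the transporters by those of Slco1b2, Slc10a1 and Abcc2. Slco1a1 lacked it, and no difference of Slc10a1 or Abcc2 passed the test below. The nuclear receptor half-site AGGTCA was held by 14.1% of windows and by those of the same transporters. Of the other motifs searched, ATTGG was in 34% of windows and 3 of 7 transporters, a STAT site in 7.67% and 2, and an antioxidant response core in 10.1% and 0.

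The total count was 19498534 to 27174015 in control, 20827770 to 29491947 in NASH and 44680344 to 60117822 in NASH-CH libraries, so that sequencing depth and NASH-CH cannot be told apart. Values are given as TMM-scaled CPM (counts of a gene relative to the library total, with the total adjusted by the trimmed mean of M-values), which does not correct for gene length, and levels of different genes are therefore not compared. Labels did not state whether libraries were prepared together. All 15 hepatocyte markers were detected in every group, with a summed level of 137624 to 195656 CPM in control rats, 99712 to 161959 CPM in NASH animals and 92209 to 151874 CPM in NASH-CH rats. Alb was a large part of this sum, at means of 105874, 74893 and 71037 CPM in control, NASH and NASH-CH rats. The median log2 fold change of the 15 markers against control was -0.02 in NASH and -0.03 in NASH-CH, with 7 of them above 0 in each. NASH-CH rats 5 and 6 stood apart from the others of their group. They had TMM factors of 1.28 and 1.22 and the lowest hepatocyte marker sums of the group, and rat 5 had a cholangiocyte marker sum of 100 CPM beside 27.4 to 45.9 CPM in the other NASH-CH rats. Transporter differences that passed the test, and others that turned on these rats, are given with and without them. Differences of all other genes are given with these rats only. In liver tissue, fewer hepatocytes and less RNA of a gene per hepatocyte cannot be told apart.

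In comparison to control animals, NASH-CH rats had less Slco1a1 and more Abcc3, and in comparison to NASH rats they had less Slco1b2. A gene was called at an adjusted p under 0.05 in the limma moderated test with Benjamini-Hochberg adjustment over all 12904 genes. Against control, 0 of 8 transporters were called in NASH, where 3.12% of all genes were called (1.58% higher and 1.54% lower). No transporter was without overlap between these groups, beside 3.16% of all genes. Likewise 0 of 8 had an unadjusted p under 0.05 by limma and the smallest adjusted p was 0.304, whereas edgeR and DESeq2 each called 1 transporter, Abcc3. Exact permutation of rats between the groups, without adjustment, gave p of 0.0195 for Slco1a1 and 0.0346 for Abcc3, and above 0.05 for the other transporters. In NASH-CH, 2 of 8 were called against control, where 17.0% of all genes were called. Of these, 1 was higher and 1 lower, beside 8.38% and 8.60% of all genes, and the same 2 genes were those without overlap between the groups, where 7.11% of all genes had none. Between NASH-CH and NASH, 1 of 8 was called and did not overlap, Slco1b2, where 4.20% of all genes were called (1.81% higher and 2.39% lower) and 3.46% did not overlap. The median log2 fold change of the 8 transporters was 0.12 in NASH and 0.13 in NASH-CH against control and -0.07 between the models, beside medians over all genes of 0.0072, 0.013 and 0.0068. Read against these shares, the counts over 8 genes do not set the transporters apart from other genes.

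**Figure D1:**
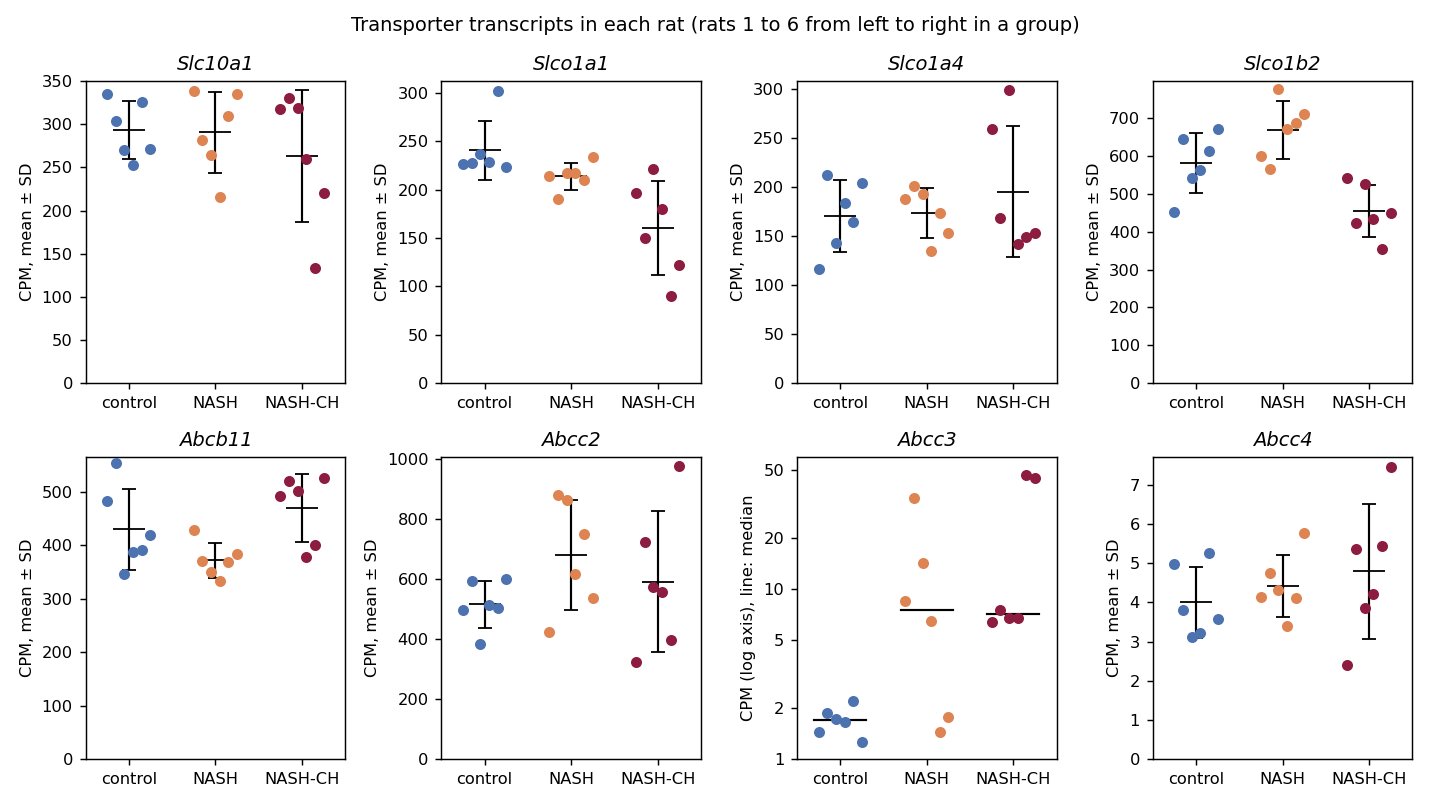
TMM-scaled CPM of the 8 transporters in each rat (points, 6 per group), with 1 panel per gene. Lines and error bars show the mean ± SD on axes from 0, except for Abcc3, which has a log axis and a line at the median. NASH-CH rats lie below all control rats for Slco1a1 and above all control rats for Abcc3, and below all NASH rats for Slco1b2.

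Slco1a1 encodes an organic anion transporting polypeptide of the sinusoidal membrane that is abundant in male rat liver. Control rats ranged from 223 to 302 CPM with a median of 228, NASH rats from 190 to 234 CPM with a median of 216, and NASH-CH rats from 90.3 to 221 CPM with a median of 165. Every NASH-CH rat lay below every control rat, and the 2 lowest were rats 6 and 5, at 123 and 90.3 CPM. The mean was 241 ± 30.3 CPM in control and 160.2 ± 48.6 CPM in NASH-CH rats (SD, n = 6). Slco1a1 fell by 0.63 on the log2 scale (SE 0.16, 95% interval -0.97 to -0.29), to 0.645 of control, with an adjusted p of 0.0131 in the limma moderated test. Without NASH-CH rats 5 and 6 the difference was -0.37 and remained called (adjusted p = 0.0372 by limma). With scaling by library size only or by hepatocyte markers the groups overlapped, while the call was kept at log2 differences of -0.38 and -0.53. Without control rat 5, the one animal near 302 CPM, it was -0.57. In NASH rats the log2 difference from control was -0.17 (SE 0.16, adjusted p = 0.581 by limma), and 5 of 6 NASH rats were below all control rats. Between NASH-CH and NASH the log2 difference was -0.46 (SE 0.16), with an adjusted p of 0.125 by limma.

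Slco1b2 encodes a hepatocyte carrier for drugs, bilirubin and unconjugated bile acids. Its level ranged from 453 to 672 CPM in controls (median 588), from 567 to 777 CPM in NASH (median 679), and from 355 to 541 CPM in NASH-CH (median 441). All NASH-CH rats lay below all NASH rats, while control rats overlapped with both models. The means were 581 ± 79.2, 669 ± 76.4 and 455 ± 69.7 CPM in control, NASH and NASH-CH rats (SD, n = 6). Slco1b2 was lower in NASH-CH than in NASH rats by a log2 difference of -0.56 (SE 0.13, 95% interval -0.82 to -0.29, adjusted p = 0.0145 by limma), a level of 0.679 of that in NASH. The call was kept without NASH-CH rats 5 and 6 (-0.48, adjusted p = 0.0460 by limma) and lost with scaling by hepatocyte markers (-0.52, adjusted p = 0.0656 by limma). Neither model passed the test against control, with log2 differences of 0.21 (SE 0.12, adjusted p = 0.331 by limma) in NASH and -0.35 (SE 0.12, adjusted p = 0.0617 by limma) in NASH-CH. The latter was called by DESeq2, at an adjusted p of 0.0169, and 4 of 6 NASH-CH rats lay below all control rats.

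Slco1a4 encodes a digoxin and bile acid carrier closely related to Slco1a1. Control rats ranged from 116 to 213 CPM with a median of 174, NASH rats from 135 to 201 CPM with a median of 180.5, and NASH-CH rats from 142 to 299 CPM with a median of 161. The 3 groups overlapped, and the highest values belonged to NASH-CH rats 3 and 1. The log2 difference from control was 0.06 (95% interval -0.33 to 0.44, adjusted p = 0.892 by limma) in NASH and 0.17 (95% interval -0.23 to 0.58, adjusted p = 0.568 by limma) in NASH-CH. The Slco1 genes are paralogs, and reads that match more than 1 of them could be split between genes in the authors' counting. The expected counts of Slco1a1 and Slco1a4 were within 0.04 and 0.01 of whole numbers in every rat, so that little fractional splitting remained, but the number of shared reads was not measured.

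**Figure D2:**
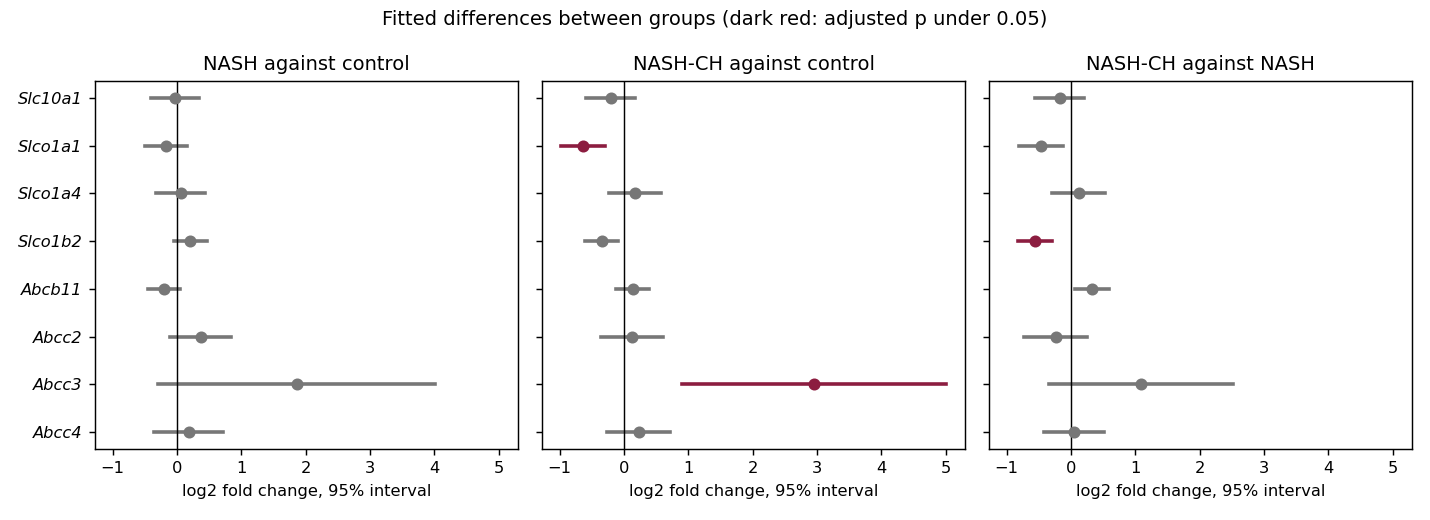
Log2 fold change (x axis) of each transporter in the 3 comparisons from the limma fit, with bars for the 95% interval and dark red marking an adjusted p under 0.05. Dark red points are Slco1a1 and Abcc3 for NASH-CH against control and Slco1b2 for NASH-CH against NASH, and Abcc3 has the widest interval, 0.89 to 5.01 for NASH-CH against control.

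Ratios of 2 genes within a library do not depend on scaling between libraries. The log2 ratio of Slco1a1 to Slco1a4 counts was 0.52 ± 0.38 in control rats, 0.31 ± 0.29 in NASH animals and -0.28 ± 0.36 in NASH-CH rats (SD, n = 6). Slco1a1 had more counts than Slco1a4 in all control rats, where the ratio ranged from 0.096 to 0.96, and NASH-CH rats ranged from -0.73 to 0.35. The log2 ratio of Slco1b2 to Slco1a4 was 1.79 ± 0.16 in control rats, 1.95 ± 0.31 in NASH animals and 1.27 ± 0.30 in NASH-CH rats. For this ratio the NASH-CH range of 0.82 to 1.61 touched the lower end of the control range of 1.60 to 1.96. The log2 ratio of the uptake carrier Slc10a1 to the export pump Abcb11 was -0.54 ± 0.21, -0.37 ± 0.15 and -0.89 ± 0.43, with NASH-CH rats 5 and 6 at -1.58 and -1.26 and the other 4 between -0.65 and -0.54, within the control range of -0.87 to -0.26. These ratios are descriptions and were not tested.

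**Figure D3:**
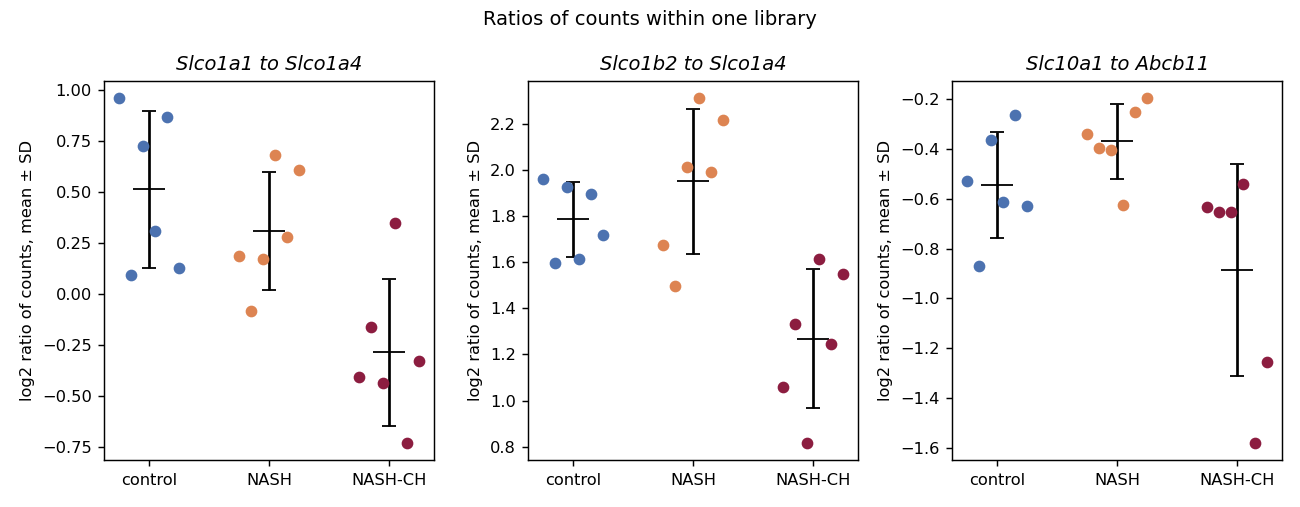
Log2 ratio of the counts of 2 transporters within each library (y axes), with points for single rats and bars for the mean ± SD of 6 rats per group. Slco1a1 relative to Slco1a4 ranges from 0.096 to 0.96 in control and from -0.73 to 0.35 in NASH-CH rats.

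Slc10a1 encodes NTCP, the sodium-dependent carrier that takes up most conjugated bile acids. Its level ranged from 253 to 335 CPM in controls (median 288), from 215 to 338 CPM in NASH (median 296), and from 134 to 330.3 CPM in NASH-CH (median 289). The groups overlapped, and the medians of the 3 groups lay within 10 CPM of each other. The lowest values of the NASH-CH group were those of rats 5 and 6, at 134 and 220 CPM, and the other 4 rats lay between 259 and 330.3 CPM. The log2 difference from control was -0.03 (95% interval -0.40 to 0.34, adjusted p = 0.947 by limma) in NASH. In NASH-CH it was -0.20 (95% interval -0.58 to 0.18, adjusted p = 0.464 by limma), and 0.063 without rats 5 and 6.

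Abcb11 encodes the bile salt export pump, the rate-limiting step of bile salt secretion into bile. Control rats ranged from 347 to 555 CPM with a median of 406, NASH rats from 332 to 428 CPM with a median of 370, and NASH-CH rats from 378 to 526 CPM with a median of 497. The NASH-CH rats lay within the range of the control rats, and 4 of 6 of them lay above all NASH rats. No comparison passed the test, with log2 differences of -0.20 (95% interval -0.44 to 0.05) in NASH and 0.13 (95% interval -0.13 to 0.39) in NASH-CH against control, at adjusted p of 0.358 and 0.488 by limma. Between NASH-CH and NASH it was 0.33 (SE 0.12, 95% interval 0.067 to 0.59), with an unadjusted p of 0.0167 and an adjusted p of 0.163 by limma.

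Abcc2 encodes MRP2, the canalicular exporter of bilirubin glucuronides and other conjugates. Its level ranged from 382 to 599 CPM in controls (median 510), from 424 to 881 CPM in NASH (median 684), and from 325 to 976 CPM in NASH-CH (median 564). In all, 4 of 6 NASH rats lay above all control rats, and NASH-CH rats included both the lowest and the highest value of the study. The coefficient of variation was 15.4% in control rats, 27.1% in NASH animals and 39.7% in NASH-CH rats. The log2 difference from control was 0.37 (95% interval -0.10 to 0.84, adjusted p = 0.358 by limma) in NASH and 0.13 (95% interval -0.36 to 0.61, adjusted p = 0.740 by limma) in NASH-CH.

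Abcc3 encodes MRP3, a basolateral exporter of conjugates that is induced by phenobarbital and in cholestasis and is also present in bile duct epithelium. Control rats ranged from 1.26 to 2.18 CPM with a median of 1.68, NASH rats from 1.44 to 34.2 CPM with a median of 7.48, and NASH-CH rats from 6.38 to 46.9 CPM with a median of 7.14. These levels rest on 23 to 48 counts per control library, 42 to 798 per NASH library and 309 to 3608 per NASH-CH library. All 6 NASH-CH rats lay above all control rats. Among them, rats 5 and 6 were at 46.9 and 44.9 CPM and the other 4 between 6.38 and 7.53 CPM. The NASH rats were spread over the whole range, with rats 5 and 6 at 1.44 and 1.77 CPM within the control range and rats 1 to 4 at 8.47, 34.2, 14.3 and 6.50 CPM above it.

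Abcc3 rose in NASH-CH by a log2 fold change of 2.95 (SE 0.98, 95% interval 0.89 to 5.01, adjusted p = 0.0455 by limma), 7.73-fold on this scale. The call lay close to the threshold. Without NASH-CH rats 5 and 6 together the log2 fold change was 2.03 (adjusted p = 0.102 by limma), and the call was also lost in 8 of 12 fits that left out a single rat (each control rat, NASH-CH rat 5 or NASH-CH rat 6), with adjusted p from 0.0371 to 0.0870 over the 12. It was kept by edgeR (3.56, adjusted p = 0.0037) and DESeq2 (3.56, adjusted p = 1.36e-05). In NASH the log2 fold change was 1.86 (95% interval -0.29 to 4.01, adjusted p = 0.304 by limma), whereas edgeR and DESeq2 gave 2.72 each, with adjusted p of 0.0477 and 0.00461. Between NASH-CH and NASH it was 1.09 (95% interval -0.35 to 2.52, adjusted p = 0.433 by limma), and 0.17 (adjusted p = 0.928 by limma) without NASH-CH rats 5 and 6. Leaving out single rats gave 0.63 to 1.57, and the medians of the models, 7.14 and 7.48 CPM, were close. The mean difference thus rested on a few rats. These were NASH-CH rats 5 and 6, with high values, and also NASH rats 5 and 6, with values in the control range. A fit without these NASH rats together is not given.

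Some other genes were high or low in part of the same rats as Abcc3. Cyp2b2, the classical phenobarbital-inducible cytochrome, was at 98.5, 1105, 201 and 14.7 CPM in NASH rats 1 to 4, and at 6.0 and 6.1 CPM in NASH rats 5 and 6, the animals with control levels of Abcc3. The value of NASH rat 4 lay within the control range of Cyp2b2, although its Abcc3 lay above that of all control rats. Cyp2b2 was between 6.56 and 47.2 CPM in control and above 555 CPM in every NASH-CH rat. Within NASH-CH, Cyp2b2 was highest in rat 3, at 1058 CPM, where Abcc3 was 6.74 CPM, and was 592 CPM in rat 5, where Abcc3 was highest. Other targets of CAR differed among themselves in NASH-CH rat 5. Ephx1, at 2110 CPM beside 1187 CPM in the next rat, and Gstm3, at 24.8 CPM, were highest of the group there. Cyp3a2, Por and Alas1 were lowest of the group in that rat, at 764, 154 and 293 CPM. A link of these genes to Abcc3 was not tested. The reads of Cyp2b2 could be split with close paralogs, so its level is uncertain. The cholangiocyte marker sum was 28.4 to 31.1 CPM in control rats, 26.1 to 33.5 CPM in NASH animals and 27.4 to 100 CPM in NASH-CH rats. Of its 10 genes 6 were tested, of which 1 was called higher in NASH-CH and 0 in NASH. The log2 fold change was above 0 for 2 of these 6 in NASH and for 5 in NASH-CH. Anxa4 was a large part of the sum, at means of 19.5, 21.0 and 28.9 CPM in control, NASH and NASH-CH rats. Markers at low levels therefore weigh little in it, such as Cftr, which was 12.1 CPM in NASH-CH rat 5 and at most 1.42 CPM in the others of that group. The sum was highest in NASH-CH rat 5, which also had the highest Abcc3. NASH-CH rats 2 and 6 had like sums of 45.9 and 45.0 CPM beside 7.53 and 44.9 CPM of Abcc3. NASH-CH rat 4, with a sum of 27.4 CPM below every control rat, had 6.75 CPM of Abcc3, and NASH rats 1, 3 and 4 had sums of 27.4, 27.0 and 26.1 CPM beside Abcc3 above all control rats. The part of bile duct cells in the values of NASH-CH rats 5 and 6 was not tested.

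**Figure D4:**
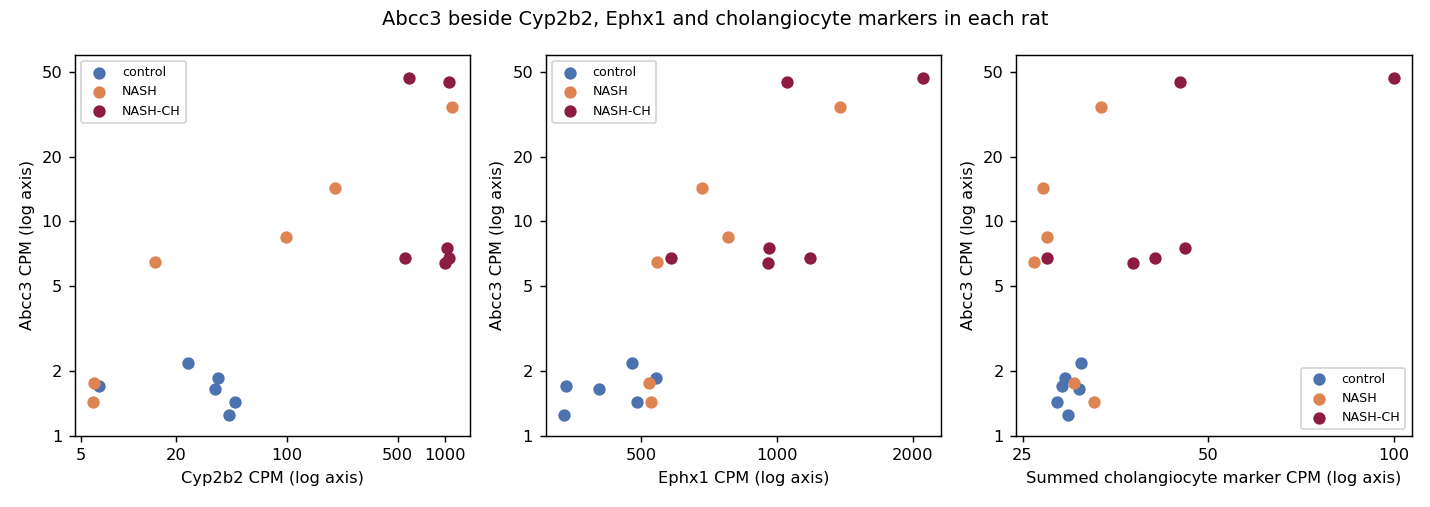
Abcc3 (y axis) against Cyp2b2, Ephx1 and the summed cholangiocyte markers (x axes) in each of 18 rats, all in TMM-scaled CPM on log axes, with colours for the 3 groups. NASH rats 5 and 6 lie within the control range of Abcc3 and Ephx1 and, at 6.0 and 6.1 CPM, just below that of Cyp2b2, and NASH-CH rat 5, at 100 CPM of cholangiocyte markers, lies far to the right in the last panel.

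Abcc4 encodes MRP4, a basolateral exporter that carries bile acids together with glutathione. Its level ranged from 3.13 to 5.26 CPM in controls (median 3.70), from 3.40 to 5.78 CPM in NASH (median 4.23), and from 2.40 to 7.47 CPM in NASH-CH (median 4.80), from 62 to 419 counts per library. The groups overlapped, and NASH-CH rats held both the lowest and the highest value. The log2 difference from control was 0.18 (95% interval -0.35 to 0.71, adjusted p = 0.724 by limma) in NASH and 0.23 (95% interval -0.26 to 0.72, adjusted p = 0.533 by limma) in NASH-CH. Of Abcc3 and Abcc4, Abcc3 alone was called, and the difference between Abcc3 and Abcc4 in their response was not tested. The log2 ratio of Abcc3 to Abcc4 counts was -1.23 ± 0.35 in control rats, 0.55 ± 1.80 in NASH animals and 1.51 ± 1.09 in NASH-CH rats (SD, n = 6), with NASH-CH rats 5 and 6 at 3.10 and 2.59 and the other 4 between 0.49 and 1.41.

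Rats 5 and 6 of the NASH-CH group were the lowest of their group for Slc10a1 and Slco1a1 and the highest for Abcc3. For Abcc2 they diverged, with rat 6 at 976 CPM, the highest of all rats, and rat 5 at 398 CPM. Slco1b2 was lowest in rat 5, at 355 CPM, while rat 6, at 449 CPM, lay above the group median.

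**Figure D5:**
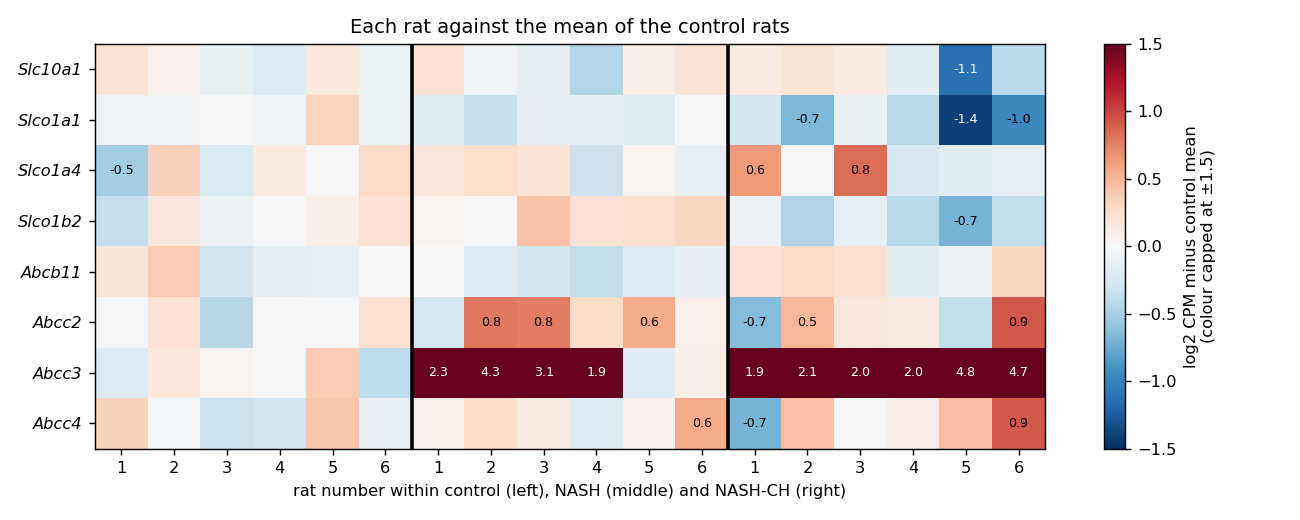
Heat map of the log2 difference of each transporter (rows) from the control mean in each of 18 rats (columns, by group), with colours capped at 1.5 log2 units and the larger differences written in the cells. NASH-CH rats 5 and 6 combine low Slc10a1 and Slco1a1 with high Abcc3, and NASH rats 5 and 6 have Abcc3 near the control mean.

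Other genes of bile acid and drug transport were described from lists chosen by function. Of 8 other basolateral uptake carriers tested, 0 were called in NASH and 2 were lower in NASH-CH, the organic anion carrier Slc22a7 (-0.56, adjusted p = 0.0107 by limma) and the monocarboxylate carrier Slc16a1 (-0.65, adjusted p = 0.0069 by limma). The median log2 fold change of these carriers was 0.06 in NASH and -0.41 in NASH-CH, beside 0.0072 and 0.013 over all genes. Of 5 other canalicular exporters, only the multidrug exporter Abcb1a was called, and it was higher in both models. Its level was 89.5 ± 37.2 CPM in control rats, 224 ± 70.7 CPM in NASH animals and 192 ± 72.4 CPM in NASH-CH rats (SD, n = 6), with log2 fold changes of 1.36 and 1.11 and adjusted p of 0.011 and 0.0092 by limma. Abcb1a has close paralogs, and its value is uncertain where reads were shared. Of 5 other basolateral exporters, 0 were called in NASH and 2 were higher in NASH-CH, Abcc1 (0.61, adjusted p = 0.0277 by limma) and Abcc5 (0.74, adjusted p = 0.004 by limma), both from about 2 to 4 CPM. The organic solute transporter genes Slc51a and Slc51b, partners of Abcc3 in basolateral bile acid efflux, had at most 4 and 1 counts in any library and were not tested. Among 12 genes of the canalicular membrane and its trafficking, 0 were called in NASH, and in NASH-CH the motor Myo5b was higher (0.51) and the flippase subunit Tmem30a lower (-0.47).

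Among 18 regulators of these transporters, Ppara was the only gene called in NASH (0.91, adjusted p = 0.0308 by limma). In NASH-CH, Ppara was higher (0.88, adjusted p = 0.0132 by limma) and Nr1i3, which encodes CAR, was lower (-0.87, adjusted p = 0.0289 by limma). Nr1i3 was at 12.3 ± 4.68 CPM in control rats, 18.2 ± 4.82 CPM in NASH animals and 6.54 ± 2.38 CPM in NASH-CH rats (SD, n = 6), and it was also lower in NASH-CH than in NASH rats (-1.51, adjusted p = 0.0009 by limma). Nr1h4, its target Nr0b2, the pregnane receptor Nr1i2 and the antioxidant factor Nfe2l2 were called in neither model. Of 6 CAR targets tested, 1 was higher in NASH, Cyp3a2, and 4 were higher in NASH-CH, Cyp2b2 (4.96), Gstm3 (4.46), the epoxide hydrolase Ephx1 (1.31) and Cyp3a2 (1.24). The cytochrome and transferase genes among them have close paralogs, and their values are uncertain where reads were shared. The list's median log2 fold change was 0.81 in NASH and 1.27 in NASH-CH. In NASH-CH rats CAR mRNA was lower while several of its targets and Abcc3 were higher. The activity of CAR was not measured, and a link between CAR and Abcc3 was not tested. Among targets of Nfe2l2, the malic enzyme gene Me1 was lower in NASH (-1.60) and in NASH-CH (-1.10), and no target was called higher in either model. Me1 does not stand for the list, since of 9 targets tested 6 had a log2 fold change above 0 in NASH and 5 in NASH-CH. The median of these 9 was 0.35 in NASH and 0.16 in NASH-CH. Of 10 enzymes of bile acid synthesis, 0 were called in NASH. In NASH-CH the oxysterol hydroxylase Cyp7b1 was higher (2.23) and Hsd3b7 (-0.53) and the conjugating enzyme Baat (-0.54) were lower. Of 3 male-predominant genes, Cyp3a2 alone was called, higher in both models.

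Among other cell type markers, 4 of 9 stellate cell markers were higher and 1 lower in NASH-CH, and 1 was higher and 1 lower in NASH. Of 10 macrophage markers, 7 were lower in NASH-CH and 1 in NASH. Over all genes, 8.38% were called higher and 8.60% lower in NASH-CH, and 1.58% and 1.54% in NASH. By staining of liver sections, the study found more CD68-positive and CD163-positive macrophages in NASH-CH than in control rats. The macrophage marker RNA is therefore not read as a number of macrophages. Of 9 endothelial markers, 2 were higher in NASH-CH and 0 were called in NASH, and of 4 leukocyte markers 0 were called in either model. Of 15 hepatocyte markers, 3 were lower in NASH-CH and 1 in NASH. The part of cell composition in the transporter values was not tested.

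Genes with the most similar pattern were sought among 5177 genes by Pearson's r of log2 CPM over 18 rats, as a description. Slco1a1 was most like Glud1 (r = 0.941, and 0.879 within groups), which encodes glutamate dehydrogenase, and Mup4 (r = 0.918). Slc10a1 was most like Slc37a4 (r = 0.937, and 0.933 within groups), the glucose-6-phosphate carrier, and Gc (r = 0.912). Slco1b2 was most like the glycerol kinase gene Gk (r = 0.901, and 0.826 within groups). Abcc3 was most like App (r = 0.914, and 0.815 within groups) and Ephx1 (r = 0.865, and 0.719 within groups). The closest genes to Slco1a4, Abcb11, Abcc2 and Abcc4 were Tex2 (r = 0.830), Alkbh3 (r = 0.813), Rptor (r = 0.790) and Ltbp4 (r = 0.812). These rats share group, depth and scaling, which all enter r. By ranks (Spearman's rho) some pairs were less alike, at 0.647 for Slco1a1 with Mup4 and 0.773 for Slc10a1 with Gc. Others were closer to r, at 0.901 for Slco1a1 with Glud1 and 0.853 for Slc10a1 with Slc37a4.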

How the data were processed

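Liver RNA of 18 rats (control, NASH and NASH-CH, 6 each) was sequenced from stranded mRNA libraries, 1 per rat, and rats were grouped by the group in their labels. The authors trimmed reads, aligned them to Rnor_6.0 with STAR and deposited RSEM expected counts per gene with Ensembl annotation, not normalized; tool versions are not given in the sources used here. Expected counts were rounded, scaled by TMM, kept by filterByExpr and tested with limma 3.58.1 (voom, moderated test, 1 fit of 18 rats) in R 4.3.3, with Benjamini-Hochberg adjustment over 12904 genes and a threshold of 0.05. CPM of single rats were TMM-scaled, and likeness used log2 CPM with a prior count of 2 for genes at a mean of 10 CPM or more. Reads that map to several genes are shared by RSEM, which can blur paralogs. Alternatives were edgeR 4.0.16, DESeq2 1.42.0, other scalings, no filter, quality weights, 2 groups per fit, a replicate block, exact permutation of rats between 2 groups and leaving out rats. Scripts were tested on simulated data. The set of transporters, the gene lists and the named genes (every transporter, and from each list up to 4 genes past the threshold against control) were chosen with earlier results of these data known. The study housed rats 2 per cage, and which rats shared a cage is not stated, so an effect of the cage cannot be told apart. Whether rats of a group were otherwise handled independently is not stated either, and p-values measure the spread between these rats. Libraries of a group differed beyond sampling noise, with a smallest chi-square per degree of freedom of 28.3 in any pair. The result of 1 list gene is not reported here.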

Additional observations from a re-analysis of the deposited data

Results flagged for a closer look

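Slco1a1 in control rat 5 stood apart from the other control rats. Its 302 CPM was followed by 237 CPM, on the log2 CPM scale a gap of 0.805 of the range of the group, above the 95% critical value of Dixon's test for 6 rats. It was 1 of 24 groups examined, and chance gives such a value in about 1 of 20 groups. The cause was not tested.

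The change of Slco1b2 differed between the models, since NASH-CH against NASH compares their changes from the same control rats. The log2 difference was -0.56 (adjusted p = 0.0145 by limma), with all 6 NASH-CH rats below all 6 NASH rats.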

How the results depend on the processing

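For NASH against control, DESeq2 and edgeR each called 1 transporter in place of 0, and 0 were called in each fit that left out 1 rat. For NASH-CH against control, 2 transporters became 0 at a threshold of 0.01 and 1 with hepatocyte scaling, with quality weights, without small non-coding genes or without NASH-CH rats 5 and 6, became 3 with DESeq2 and without a filter on low counts, and ranged from 1 to 3 when single rats were left out. For NASH-CH against NASH, 1 became 0 at 0.01 and with hepatocyte scaling, and stayed 1 when single rats were left out. Transporters without overlap went from 2 to 1 for NASH-CH against control with library size or hepatocyte scaling, and from 1 to 0 for NASH-CH against NASH with hepatocyte scaling.

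Abcc3 in NASH-CH against control was no longer called with hepatocyte scaling (3.05), quality weights (2.39), without small non-coding genes (2.94, adjusted p = 0.05 by limma) or without rats 5 and 6 (2.03). Slco1b2 in NASH-CH against control gained a call without a filter (adjusted p = 0.0432 by limma), and without NASH-CH rat 1, NASH-CH rat 3 or control rat 1. Rats of different groups with the same number did not deviate together: the mean correlation of such pairs was 0.052, 0.073 and 0.015 in the 3 comparisons, over 0.1 in 2, 1 and 0 of 6 pairs. The numbers therefore do not pair the rats. With the replicate block, 1 transporter was called in NASH-CH against control, since Abcc3 (3.01) had an adjusted p of 0.0669 by limma.

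Directions against control turned for values near 0. In NASH these were Abcb11 (0.030) and Slco1a1 (0.061) with library size, and Slc10a1 with hepatocyte scaling (0.051), library size (0.20) and quality weights (0.039). In NASH-CH these were Slc10a1 with library size (0.049) and without rats 5 and 6 (0.063), and Abcc4 without rats 5 and 6 (-0.036). Between the models, Abcc4 turned with quality weights (-0.090) and without rats 5 and 6 (-0.22), as did Slc10a1 without them (0.087). Leaving out single rats gave -0.076 to 0.066 for Slc10a1 and -0.054 to 0.14 for Slco1a4 in NASH, -0.029 to 0.28 for Abcc2 in NASH-CH, and -0.10 to 0.22 for Abcc4 and -0.017 to 0.20 for Slco1a4 between the models. Over all tested genes, the log2 fold change had a median in the 3 comparisons of 0.0072, 0.013 and 0.0068 with TMM, 0.23, 0.27 and 0.04 with library size alone, and 0.071, 0.12 and 0.048 with hepatocyte scaling.

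Over all genes, the 403 calls in NASH became 1228 with DESeq2, 652 with edgeR, 39 at 0.01, 138 with hepatocyte scaling, 865 with library size, 268 without a filter, 644 with 2 groups per fit and 1509 with quality weights, and 128 to 982 without single rats. The 2192 in NASH-CH became 849 at 0.01, 1317 with hepatocyte scaling, 5495 without a filter and 1408 with 2 groups, and 1519 to 2409 without single rats. The 542 between the models became 949 with DESeq2, 239 at 0.01, 308 with hepatocyte scaling, 2649 without a filter, 349 with 2 groups and 290 without small non-coding genes, and 346 to 591 without single rats. The cause of these shifts was not tested.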
